A study of Mus musculus with 8 samples.

Results

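The 36 genes described here encode proteins of the nucleolus, of the small nucleolar ribonucleoproteins (snoRNPs) and of RNA polymerase I. They were listed by name, with no threshold on their values but with earlier results of these data known, and all 36 are among the 20308 gene symbols measured. All 36 also passed the filter on low counts, which 13407 genes passed. RNA was sequenced from CD11b+ brain cells, mainly microglia, of 4 control mice and 4 mice that overexpress colony stimulating factor 1 (CSF1 OE). CSF1 OE mice carry a transgene for the secreted form of CSF1, the ligand of a receptor on microglia, which the TRE/tTA system turns on in a subset of GFAP+ cells. All mice were F1 animals of C57Bl/6 and CD1, and which parts of the transgene system the controls carry is not given in the sources used here. They were 14 or 15 days old, with no age given per mouse. Cells came from the right hemisphere by CD11b magnetic beads after myelin had been removed with Percoll, and each library came from a separate mouse.

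Ribosomes are built in the nucleolus, where RNA polymerase I transcribes a long precursor of the ribosomal RNAs. Box C/D snoRNPs guide ribose methylation of that precursor and box H/ACA snoRNPs guide the conversion of uridine to pseudouridine, while large sets of assembly factors cut, fold and join it with ribosomal proteins into a small and a large subunit. The output of this line follows the growth of a cell, and dividing cells make many ribosomes.

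Total counts ran from 12908195 to 15475488 in control and from 12053280 to 14356538 in CSF1 OE libraries. Expression is given as CPM, counts per 1000000 after TMM scaling, and values per mouse are listed for control mice 1827, 1872, 1874 and 1934 and then for CSF1 OE mice 1931, 1932, 1936 and 2019. The p-values measure the spread between these mice. *Csf1* itself had 364, 310, 139 and 317 CPM in control and 388, 400.1, 333 and 167 in CSF1 OE mice, with overlap (edgeR adjusted p = 0.796). As the transgene is driven in GFAP+ cells, *Csf1* in CD11b+ cells is no check of the labels. The 14 microglia markers were about evenly divided, with 7 higher and 7 lower in CSF1 OE. In a mixed cell sample, fewer cells of a type and less RNA per cell cannot be told apart.

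Most of the nucleolar genes had higher expression in CSF1 OE, by a modest amount. Of the 36 genes, 31 were higher and 5 lower, and the log2 fold change ran from -0.06 to 0.65. The median was 0.27, where that of all genes tested was -0.034. A gene was called differentially expressed at an adjusted p under 0.05 with a fold change under 0.7 or over 1.43. By that rule 1 of the 36, *Npm1*, rose and none fell, beside 0.44% of all genes called in either direction and 0.388% called higher. At an unadjusted p under 0.05, 18 of the 36 were higher, beside 10.1% of all genes tested, and 0 were lower, beside 6.44%. All 4 CSF1 OE values lay above all 4 control values in 16 of the 36, beside 6.84% of all genes. The fold change passed the threshold in 5 genes, which were *Nhp2*, *Rrp12*, *Npm1*, *Ddx21* and *Gar1*. The 5 genes below 0 were *Polr1b*, *Rrp1b*, *Ubtf*, *Wdr75* and *Noc2l*, all so close to it that each changed sign in some alternative. Over the alternatives the number of genes higher ran from 27, with a covariate for other cell types, to 36, without CSF1 OE mouse 1936.

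**Figure D1:**
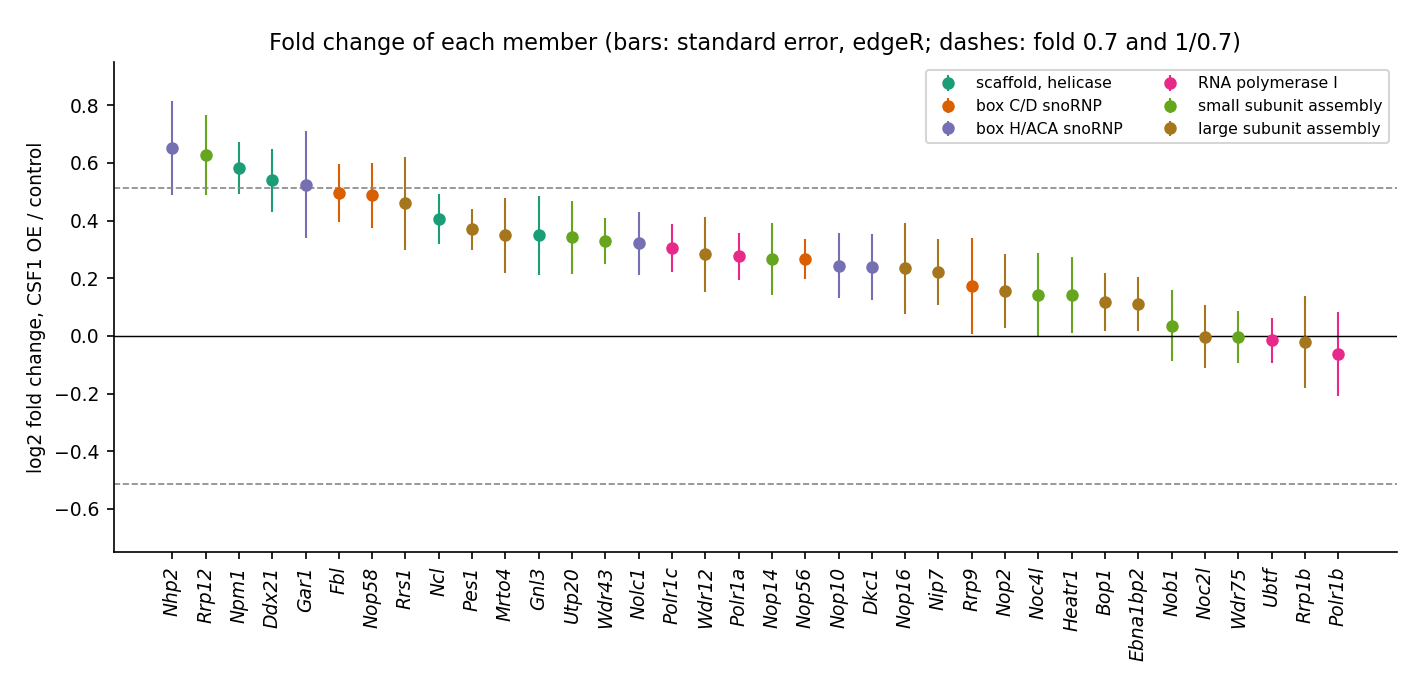
The log2 fold change of CSF1 OE against control for each of the 36 genes, in falling order, with the standard error from edgeR as bars, colours for the role of the gene and dashed lines at the fold thresholds. Values run from 0.65 for *Nhp2* to -0.06 for *Polr1b*, and 5 genes lie above the upper line.

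Promoters of genes that were higher together are shown for their sequence. RefSeq (GRCm38.p6) gave a promoter, from 250 bases before to 50 bases after the start site, for 31 of the 36 genes, and *Npm1*, *Fbl*, *Rrp12*, *Rrs1* and *Bop1* had no entry in the table used. The E box CACGTG, the sequence that MYC and related factors bind, was in 4 of 31 promoters, or 12.9%, and in 11.5% of the promoters of 10105 tested genes. The sequence CCGGAAG, which ETS factors bind, was in 9 of 31, or 29.0%, and in 18.8% of the same background. These 9 were *Nhp2*, *Gar1*, *Nolc1*, *Polr1c*, *Nip7*, *Nop2*, *Heatr1*, *Ebna1bp2* and *Noc2l*. Their log2 fold changes ran from 0.65 for *Nhp2* to -0.002 for *Noc2l*. Both strands were searched, and the letters of 1 motif cannot overlap the other. A match describes the letters of the sequence and is not evidence of a bound factor. *Ncl*, which was also higher, held neither sequence in its promoter. Start sites here are those of RefSeq. By GENCODE M21, *Nhp2* begins at 51619735, within the stretch printed below and before its motif, and *Wdr43* at 71615895, before its stretch. The 100 bases from 70 before to 30 after the start site follow for some of the higher genes that hold a motif, in capitals.
*Pes1*, chr11:3963905-3964004, plus strand, E box at base 3 after the start: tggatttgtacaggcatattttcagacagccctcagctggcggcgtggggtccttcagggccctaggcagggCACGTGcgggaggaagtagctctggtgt
*Wdr43*, chr17:71616145-71616244, plus strand, E box at base 18 after the start: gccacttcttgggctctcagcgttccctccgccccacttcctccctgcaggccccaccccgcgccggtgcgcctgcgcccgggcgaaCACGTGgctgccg
*Nhp2*, chr11:51619703-51619802, plus strand, ETS motif at base -23: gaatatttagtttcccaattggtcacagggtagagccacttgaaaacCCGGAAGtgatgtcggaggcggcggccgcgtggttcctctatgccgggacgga
*Polr1c*, chr17:46248016-46248115, minus strand, ETS motif at base -42: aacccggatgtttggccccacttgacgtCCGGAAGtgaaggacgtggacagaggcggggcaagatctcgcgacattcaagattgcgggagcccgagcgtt

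The scaffold proteins and the helicase of the nucleolus were the role with the highest median, 0.47 over 4 genes. All 4 were higher at an unadjusted p under 0.05. *Npm1* (chromosome 11, 33152287 to 33163206, minus strand) encodes nucleophosmin, a chaperone that forms much of the outer, granular layer of the nucleolus. It had 349, 295, 292 and 322 CPM in control and 472, 449, 504 and 458 in CSF1 OE mice. The lowest CSF1 OE value was thus well above the highest control value, that of mouse 1827. All log2 differences are CSF1 OE against control, with the standard error (SE) from edgeR, and that of *Npm1* was 0.58 (SE 0.091, edgeR adjusted p = 0.0431), a 1.498-fold rise. The call was lost with 10 of 18 alternatives, among them leaving out any 1 mouse except control mouse 1827, where its edgeR adjusted p ran up to 0.183 (without control mouse 1874). It was 0.609 in edgeR with the covariate for dividing cells described below. The log2 difference was 0.55 to 0.64 with each mouse left out and 0.42 to 0.64 over all 18 alternatives, and the unadjusted p was under 0.05 in all 18. The study reports *Npm1* and *Nhp2* as upregulated in CSF1 OE from these same libraries by another test, so neither is independent of them. Here *Nhp2* was not called (edgeR adjusted p = 0.102).

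*Ddx21* (chromosome 10, 62580251 to 62602281, minus strand) encodes a DEAD-box RNA helicase that acts on precursor rRNA. Its CPM was 168, 144, 137 and 142 in control and 230.5, 178, 216 and 233 in CSF1 OE mice. The groups did not overlap, and mouse 1932 was the lowest of the CSF1 OE mice. The log2 fold change was 0.54 (SE 0.11, edgeR adjusted p = 0.0600). *Ncl* encodes nucleolin, an RNA-binding protein of the inner nucleolar layers, and it ran from 469 to 528 CPM in control and from 635 to 699 in CSF1 OE mice. The log2 fold change of *Ncl* was 0.40 (SE 0.086, edgeR adjusted p = 0.0690). *Gnl3* encodes nucleostemin, a GTPase common in stem cells and other cycling cells. It had 73.2, 84.0, 69.3 and 91.7 CPM in control and 104, 84.7, 124 and 92.3 in CSF1 OE mice, with overlap in mouse 1932, at a log2 difference of 0.35 (edgeR adjusted p = 0.253). *Npm1* and *Ncl* held between 33.4% and 39.2% of the summed CPM of the 36 genes in a mouse. Without them that sum still did not overlap between genotypes, at 1476 to 1715 CPM in control and 1769 to 1996 in CSF1 OE mice.

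The box C/D proteins, which carry the ribose methyltransferase, had a median log2 fold change of 0.38, with 3 of 4 higher at an unadjusted p under 0.05. *Fbl* (chromosome 7, 28169710 to 28179269, plus strand) encodes fibrillarin, the methyltransferase itself. It had 63.7, 56.4, 56.3 and 61.9 CPM in control and 93.2, 80.2, 91.1 and 71.2 in CSF1 OE mice. The groups did not overlap, and mouse 2019 was the lowest CSF1 OE mouse. Its log2 fold change was 0.50 (SE 0.10, edgeR adjusted p = 0.0600). *Nop58* (chromosome 1, 59684971 to 59719044, plus strand), a core protein of the particle, had 47.0, 38.3, 43.4 and 48.8 CPM in control and 69.6, 54.2, 58.0 and 67.2 in CSF1 OE mice. Every CSF1 OE value was again above every control value, at a log2 difference of 0.49 (SE 0.11, edgeR adjusted p = 0.0852). The partner of *Nop58*, *Nop56*, ran from 66.5 to 74.8 CPM in control and from 80.2 to 90.3 in CSF1 OE mice, a smaller log2 fold change of 0.27 (edgeR adjusted p = 0.120). *Rrp9* encodes the protein that marks the U3 particle, which acts in the processing of the precursor rather than in its methylation. It had 11.8, 14.3, 8.47 and 11.1 CPM in control and 13.7, 12.4, 13.5 and 11.9 in CSF1 OE mice. No CSF1 OE mouse exceeded control mouse 1872 for *Rrp9* (log2 fold change 0.17, edgeR adjusted p = 0.632).

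In the box H/ACA group all 5 genes were higher in CSF1 OE, with a median of 0.32, and 3 had an unadjusted p under 0.05. *Nhp2* (chromosome 11, 51619735 to 51623714, plus strand), which binds the guide RNA, had 25.1, 20.8, 16.6 and 22.9 CPM in control and 34.4, 32.2, 40.8 and 26.8 in CSF1 OE mice. That was the largest log2 fold change of the 36 genes, 0.65 (SE 0.16, edgeR adjusted p = 0.102), but control mouse 1827 and CSF1 OE mouse 2019 were close to each other. *Nolc1* (chromosome 19, 46075863 to 46085530, plus strand) encodes a chaperone that moves snoRNPs between the nucleolus and Cajal bodies. It had 91.6, 73.7, 68.7 and 91.4 CPM in control and 107, 93.9, 106 and 99.9 in CSF1 OE mice. The groups lay close without overlap, at a log2 difference of 0.32 (SE 0.11, edgeR adjusted p = 0.201). *Dkc1* encodes dyskerin, the pseudouridine synthase. It had 29.6, 24.9, 24.3 and 22.5 CPM in control and 27.8, 29.8, 28.0 and 34.0 in CSF1 OE mice. *Dkc1* had the smallest difference of the group, 0.24 (edgeR adjusted p = 0.337), and control mouse 1827 lay among the CSF1 OE mice. The small core proteins *Gar1* and *Nop10* had log2 fold changes of 0.52 (edgeR adjusted p = 0.213) and 0.24 (edgeR adjusted p = 0.319). Neither overlapped between genotypes, although both had low levels of at most 10.95 and 13.1 CPM.

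RNA polymerase I had the lowest median of the roles, 0.13, with 2 genes higher and 2 at about 0. *Polr1c* (chromosome 17, 46243920 to 46248054, minus strand), a subunit shared with RNA polymerase III, had 25.1, 22.1, 25.6 and 25.02 CPM in control and 29.2, 30.6, 30.6 and 30.4 in CSF1 OE mice. The spread within each genotype was small and the groups did not overlap, with mouse 1872 apart from the other controls. Its log2 fold change was 0.30 (SE 0.084, edgeR adjusted p = 0.138). *Polr1a*, the largest and catalytic subunit, had 61.5, 56.8, 50.9 and 60.6 CPM in control and 69.97, 70.3, 65.1 and 73.0 in CSF1 OE mice. Its groups did not overlap either, at a log2 difference of 0.28 (SE 0.082, edgeR adjusted p = 0.153). *Polr1b*, the other large subunit of the enzyme's core, had 21.7, 21.7, 19.3 and 18.5 CPM in control and 19.0, 22.6, 14.8 and 21.3 in CSF1 OE mice. The CSF1 OE mice included both the highest and the lowest value, and the log2 fold change was -0.06 (SE 0.14, edgeR adjusted p = 0.844). *Ubtf*, the factor that opens the ribosomal DNA to the polymerase, had 143 to 165 CPM in control and 137.5 to 159 in CSF1 OE mice, at a log2 difference of -0.01 (SE 0.078).

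**Figure D2:**
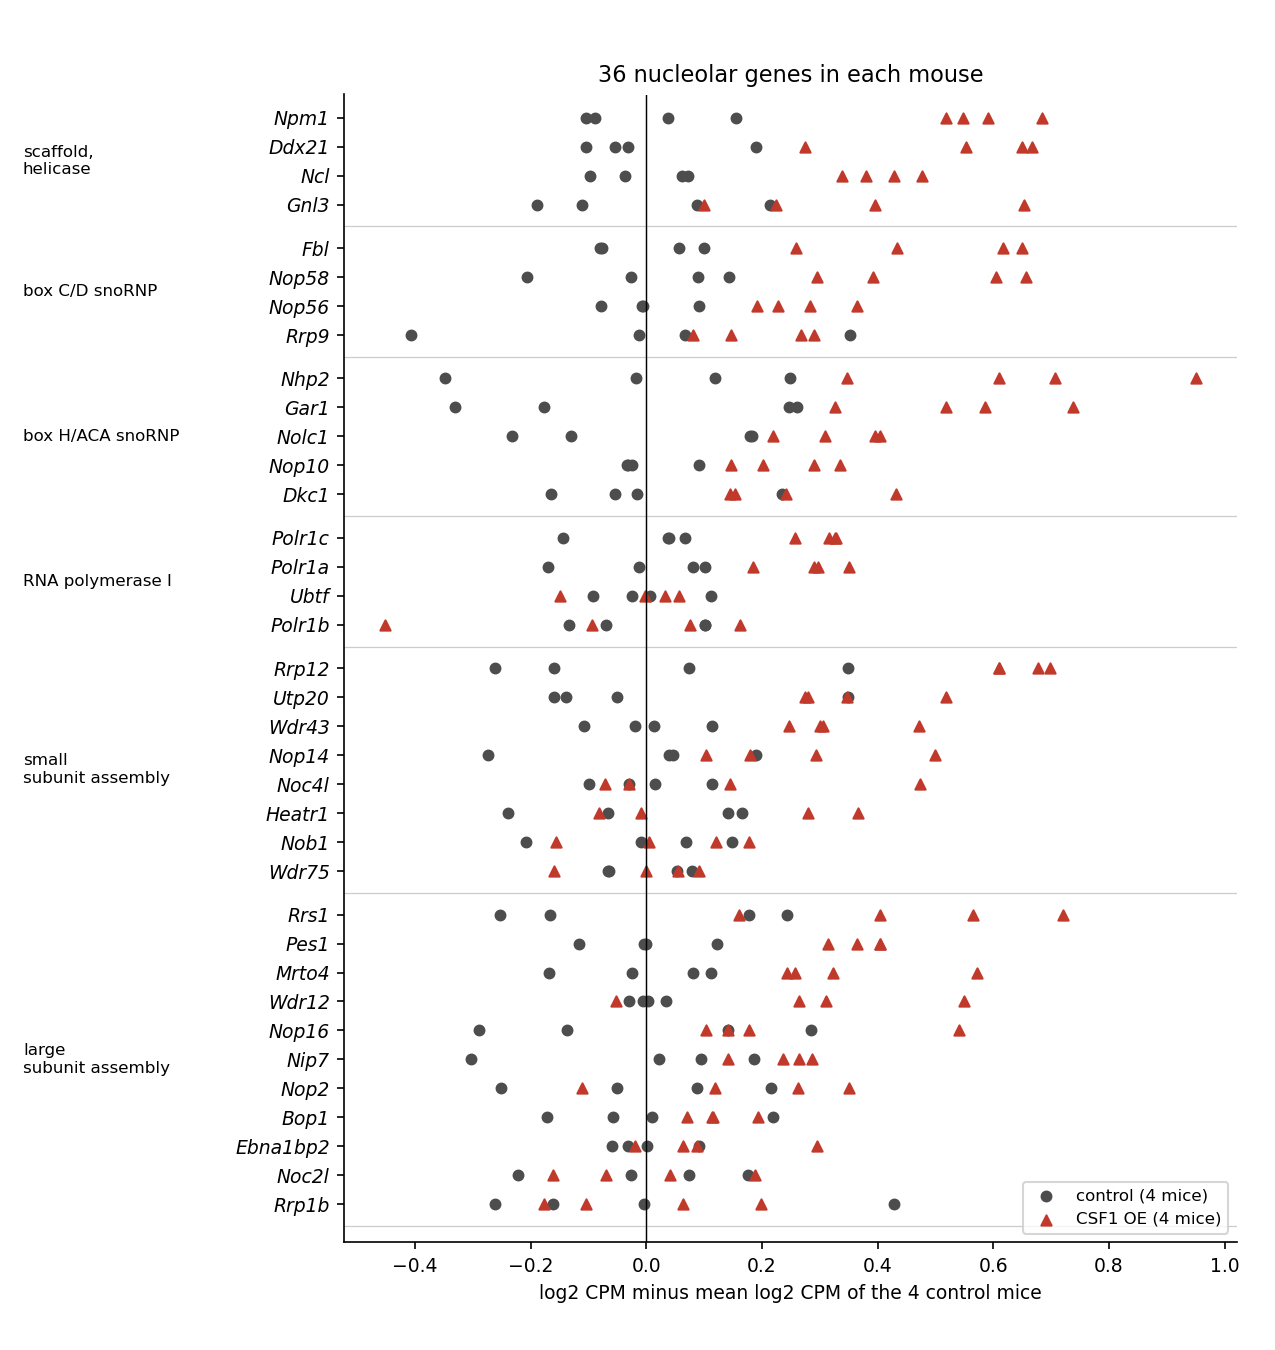
Log2 CPM of each of the 36 genes in each of the 8 mice, minus the mean of the 4 control mice, with the genes grouped by role. Circles are control and triangles CSF1 OE mice. In 16 genes every triangle lies to the right of every circle. The other rows overlap, and the log2 fold change is under 0.1 in *Ubtf*, *Polr1b*, *Wdr75*, *Nob1*, *Noc2l* and *Rrp1b*.

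Of the 8 small subunit factors, 7 were higher, 3 of them at an unadjusted p under 0.05, and the median was 0.20. *Rrp12* (chromosome 19, 41862851 to 41896173, minus strand), which takes part in maturation and export of the precursors, had 20.4, 16.9, 13.4 and 14.4 CPM in control and 26.0, 24.5, 24.5 and 25.7 in CSF1 OE mice. The CSF1 OE mice were close together and all above control mouse 1827, the highest control. Its log2 fold change of 0.63 (SE 0.14, edgeR adjusted p = 0.0768) was second to that of *Nhp2*. *Wdr43*, *Wdr75* and *Heatr1* belong to the subcomplex that binds the precursor first and links it to its transcription. *Wdr43* (chromosome 17, 71615895 to 71659031, plus strand) had 62.3, 58.1, 53.4 and 56.8 CPM in control and 79.7, 70.8, 71.1 and 68.2 in CSF1 OE mice, without overlap (log2 fold change 0.33, SE 0.080, edgeR adjusted p = 0.0937). *Wdr75* had 29.4, 27.1, 27.1 and 29.98 CPM in control and 30.2, 28.4, 25.4 and 29.5 in CSF1 OE mice. Its groups covered the same range, at a log2 difference of -0.003 (SE 0.091). *Heatr1* was at 0.14 and overlapped. The 3 genes of this subcomplex thus had unlike values, and the differences between them were not tested.

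Among the other small subunit factors, *Utp20*, a scaffold of the early particle, was at 0.34 (edgeR adjusted p = 0.231), and control mouse 1827 had a higher value than 3 of the CSF1 OE mice. *Nop14* and *Noc4l*, which bind each other, had log2 fold changes of 0.27 and 0.14 with overlap. *Nob1*, the endonuclease that makes the end of the small subunit rRNA late in the cytoplasm, was at 0.03 (SE 0.12).

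The large subunit factors had a median of 0.22, with 9 of 11 higher and 3 of 11 at an unadjusted p under 0.05. *Pes1* (chromosome 11, 3963975 to 3980004, plus strand) encodes pescadillo, which with the products of *Bop1* and *Wdr12* forms the PeBoW complex. It had 102, 93.5, 93.8 and 86.6 CPM in control and 124, 117, 124 and 121 in CSF1 OE mice. The groups lay apart, at a log2 difference of 0.37 (SE 0.072, edgeR adjusted p = 0.0558). *Bop1* ran from 26.4 to 34.6 CPM in control and from 31.2 to 34.0 in CSF1 OE mice, at a log2 difference of 0.12 (edgeR adjusted p = 0.586). *Wdr12* was at 0.28, and mouse 1932 lay below all controls. *Rrs1*, a factor for early assembly of the large subunit, had 18.8, 13.97, 14.8 and 19.7 CPM in control and 27.4, 24.6, 22.01 and 18.6 in CSF1 OE mice. Mouse 2019 lay within the controls, and the log2 fold change of *Rrs1* was 0.46 (SE 0.16, edgeR adjusted p = 0.212).

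*Mrto4*, whose product holds the place of a ribosomal stalk protein during assembly, had 9.45 to 11.5 CPM in control and 12.6 to 15.8 in CSF1 OE mice, at a log2 difference of 0.35 (edgeR adjusted p = 0.236) without overlap. *Nop16*, *Nip7*, *Nop2* and *Ebna1bp2* had log2 fold changes of 0.23, 0.22, 0.15 and 0.11, all with overlap. *Rrp1b*, a nucleolar protein that also binds chromatin, had 51.4, 38.1, 34.2 and 31.9 CPM in control and 35.6, 43.9, 33.8 and 39.9 in CSF1 OE mice. Its highest value was that of control mouse 1827 and its log2 fold change was -0.02 (SE 0.16). *Noc2l*, which also acts as an inhibitor of histone acetyltransferases, was at -0.002 (SE 0.11).

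**Figure D3:**
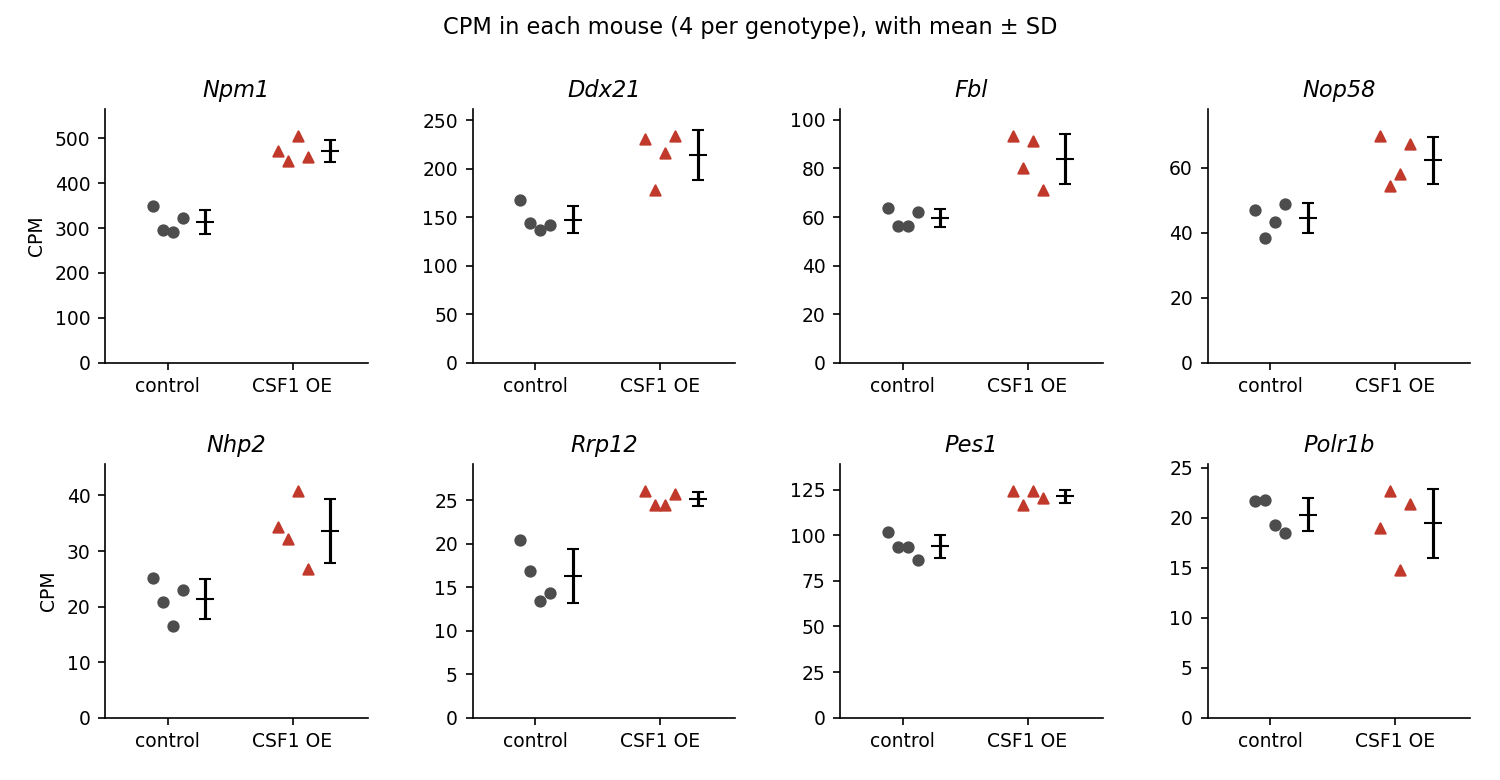
CPM of 8 of the genes in each of the 4 control mice (circles) and 4 CSF1 OE mice (triangles), with the mean and SD of each genotype beside them and axes that start at 0. The genotypes do not overlap in 7 of the 8 genes, and in *Polr1b* the CSF1 OE mice lie both above and below the controls.

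The mice differed in the level of the whole set. The median difference of the 36 genes from the control mean, on the log2 scale, was 0.11 in control mouse 1827 and -0.01, -0.10 and -0.02 in control mice 1872, 1874 and 1934. In CSF1 OE mice 1931, 1932, 1936 and 2019 it was 0.36, 0.23, 0.27 and 0.27. The lowest CSF1 OE mouse was therefore above the highest control mouse. Control mouse 1827 held the highest control value in 23 of the 36 genes and control mouse 1874 the lowest in 18, while CSF1 OE mouse 1931 held the highest CSF1 OE value in 19. Mouse 1936 was highest of all mice in the scaffold group by median (0.60) and lowest of the CSF1 OE mice in RNA polymerase I (0.02). The values are also given within each range of animal numbers, without a test, since each range has only 1 mouse of 1 genotype. Among mice 1931 to 1936, 35 genes were higher in the 3 CSF1 OE mice than in the 1 control mouse, with a median difference of 0.28. In the other 4 mice, 34 genes were higher in the 1 CSF1 OE mouse than in the 3 control mice, also with a median of 0.28.

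Ratios between partners of 1 complex were examined in each mouse, and also that of *Npm1* to *Ncl*, which were not listed as such partners. All were chosen after the values of the genes were known and are given without a test. Of 11 ratios of CPM, 2 did not overlap between the genotypes. *Pes1* to *Bop1* ran from 2.95 to 3.28 in control and from 3.63 to 3.98 in CSF1 OE mice. *Npm1* to *Ncl* ran from 0.602 to 0.661 in control and from 0.678 to 0.723 in CSF1 OE mice. The other 9 overlapped, *Nop58* to *Nop56* and *Nhp2* to *Dkc1* among them, at 0.549 to 0.734 against 0.676 to 0.818 and at 0.682 to 1.02 against 0.789 to 1.46. For *Polr1a* to *Polr1b* the means were 2.84 ± 0.309 in control and 3.66 ± 0.551 in CSF1 OE mice (SD, n = 4 each), with mouse 1936 highest at 4.401.

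**Figure D4:**
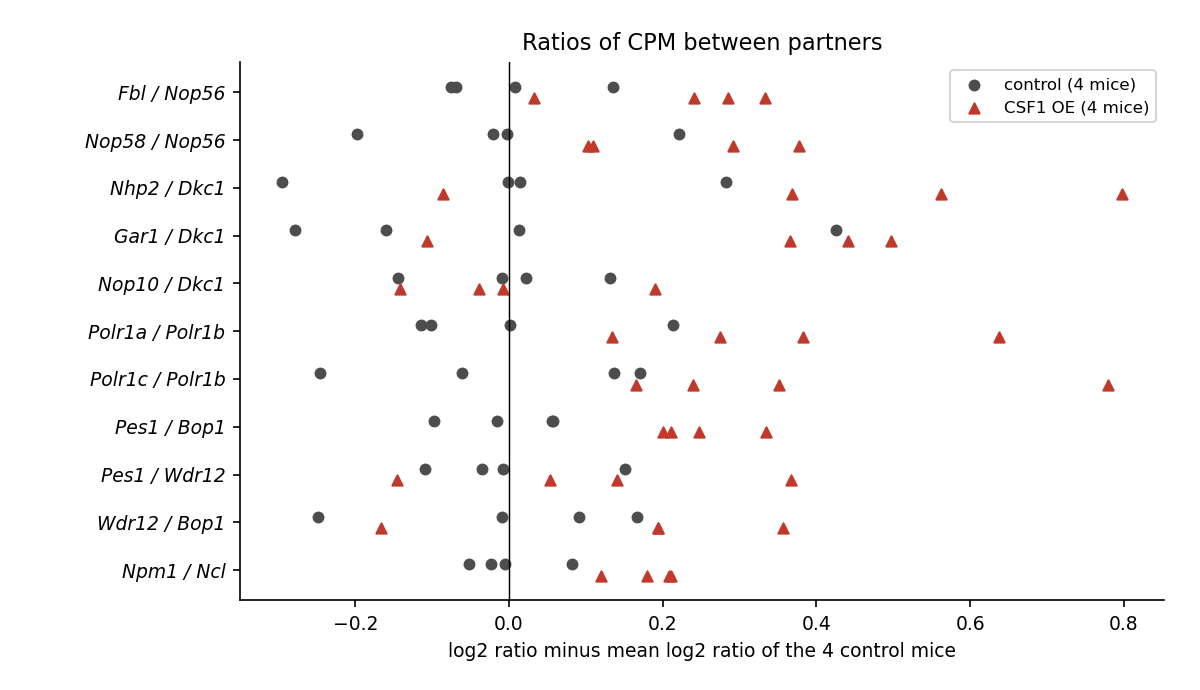
Ratios of the CPM of 2 genes in each mouse, on the log2 scale and relative to the mean of the 4 control mice. Circles are control and triangles CSF1 OE mice. The genes are partners of 1 complex, except *Npm1* and *Ncl*, which were not listed as such. The triangles lie to the right of all circles for *Pes1* to *Bop1* and for *Npm1* to *Ncl*, and overlap with them in the other 9 ratios.

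Genes of the rest of the assembly line are given for comparison. Of 158 other ribosome assembly genes that could be tested, 123 were higher and 35 lower, with a median log2 fold change of 0.12. None was called by edgeR or by DESeq2. At an unadjusted p under 0.05 with edgeR, 29 (18.35%) were higher and 5 lower, beside 10.1% and 6.44% of all genes tested. All CSF1 OE values lay above all control values in 21 of them, or 13.3%, beside 6.84% of all genes tested. Of 48 small subunit factors 42 were higher, 10 of them at an unadjusted p under 0.05, from *Dimt1*, an rRNA methyltransferase, at -0.27 to *Utp3* at 0.49 (edgeR adjusted p = 0.0937). *Utp3* had 39.6, 37.3, 44.6 and 34.4 CPM in control and 60.9, 45.5, 53.6 and 59.2 in CSF1 OE mice, without overlap. Of 48 large subunit factors 37 were higher, 11 at an unadjusted p under 0.05, from the helicase *Ddx55* at -0.28 to *Ppan* at 0.55 (edgeR adjusted p = 0.203). *Nsa2*, an early large subunit factor named after its values were seen, had the lowest p of the 158, with 114 to 134 CPM in control and 156 to 164 in CSF1 OE mice (log2 fold change 0.39, edgeR adjusted p = 0.0558).

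Of the 4 RNA polymerase I genes described above, 2 were higher and 0 lower at an unadjusted p under 0.05. The other RNA polymerase I genes were divided at that level. Of 18 tested, 12 were higher and 6 lower, and the median was 0.13. At an unadjusted p under 0.05, 2 of the 18 were higher and 4 lower, beside 10.1% and 6.44% of all genes tested. *Polr1e*, a subunit of the enzyme, was highest at 0.31 (edgeR adjusted p = 0.438). *Ptrf*, which releases the polymerase at the end of the gene and is also a coat protein of caveolae, was lowest, with 51.9 to 77.6 CPM in control and 22.4 to 47.2 in CSF1 OE mice (log2 fold change -0.70, edgeR adjusted p = 0.195). The endothelial and mural markers described below were lower in most cases too, and their part in the value of *Ptrf* was not tested. *Rrn3*, the factor that starts transcription by the polymerase, was at 0.07 (edgeR adjusted p = 0.735).

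In the remaining lists, 11 snoRNP and snoRNP assembly genes had a median of 0.09, from *Coil* at -0.19 to *Nhp2l1* at 0.29. The 22 genes of the exosome and RNase MRP had a median of 0.07, from *Rpp38* at -0.34 to *Rpp40* at 0.48. The 11 genes of the nucleophosmin family and the MYC network had a median of 0.001, from *Mycl* at -0.41 to *Npm3* at 0.47, and *Myc* had 19.4 to 51.4 CPM in control and 26.0 to 79.1 in CSF1 OE mice (log2 fold change 0.001, SE 0.41). Cytoplasmic ribosomal protein genes, the cargo of this line, had a median of 0.49 over 78 genes tested. Genes above 0 made up 44.8% of all genes tested, 77.8% of the other assembly genes and 86.1% of the 36 genes.

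**Figure D5:**
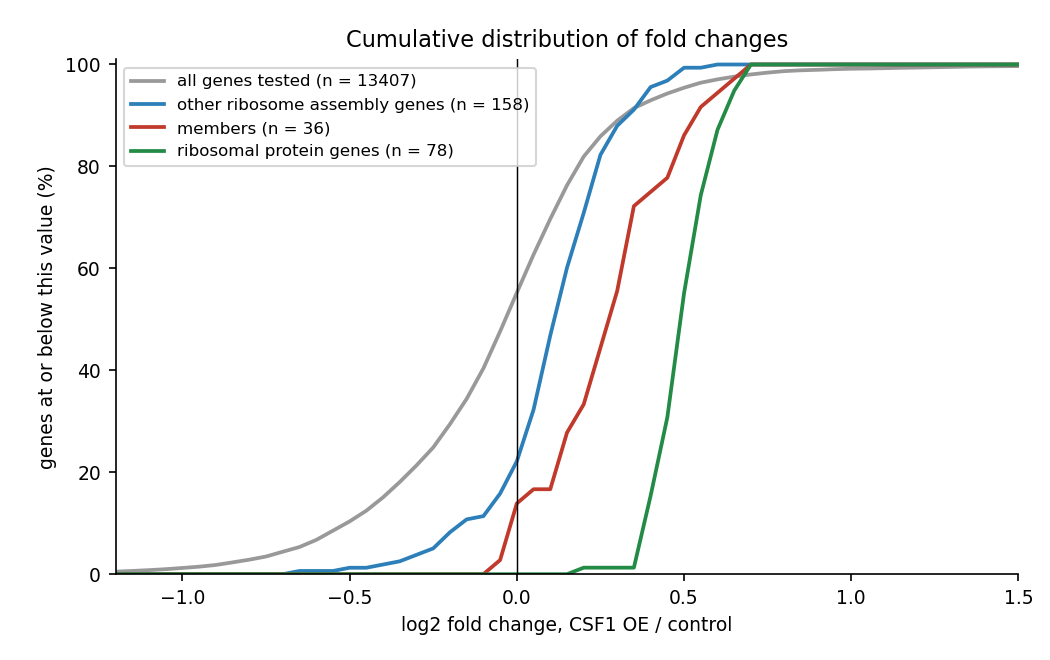
Share of genes, in percent, at or below each log2 fold change of CSF1 OE against control, for all 13407 genes tested, 158 other ribosome assembly genes, the 36 genes described here and 78 ribosomal protein genes. The curve of the 36 genes lies between those of the other assembly genes (median 0.12) and the ribosomal protein genes (median 0.49).

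Markers of dividing cells moved with the genotype. Of 20 such genes 19 were higher in CSF1 OE, 18 at an unadjusted p under 0.05, with a median of 0.66, and all 20 passed the filter on low counts. *Mki67*, the marker of cycling cells, had 268, 111, 151 and 252 CPM in control and 286, 395, 327 and 299 in CSF1 OE mice. The summed CPM of the list was 1561, 891, 960.3 and 1329 in control and 1626, 1972, 1879 and 1596 in CSF1 OE mice. Control mouse 1827 was thus the highest control for the dividing cell genes as for the nucleolar genes, while mouse 1932, highest for dividing cells, was the lowest CSF1 OE mouse for nucleolar genes. With the mean log2 CPM of the list as a covariate, chosen after seeing the data, 33 of the 36 genes were higher, with a median of 0.21. None was called by edgeR in that fit, and neither was any other gene of the whole table. *Npm1*, *Ncl*, *Ddx21*, *Fbl* and *Pes1*, 5 of the 36, kept an unadjusted p under 0.05, beside 4.12% of all genes that were higher at that level. As the list and the genotype moved together, their parts cannot be told apart in 8 mice.

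Markers of other cells were lower or mixed. All 8 border macrophage markers were lower in CSF1 OE, 6 at an unadjusted p under 0.05, with summed CPM from 1577 to 2513 in control and from 1267 to 1897 in CSF1 OE mice. Of 15 endothelial and mural markers 13 were lower, 4 at an unadjusted p under 0.05, with summed CPM from 1107 to 1962 and from 595 to 1380. All markers of both lists were above the filter on low counts. Of the other markers tested, 10 of 12 for oligodendrocytes and precursors, 7 of 9 for neurons, 7 of 11 for blood and 5 of 8 for astrocytes were lower. In those lists only *Gfap*, an astrocyte marker at 0.88, had an unadjusted p under 0.05 with edgeR. With a covariate for markers of endothelial, glial, neuronal and blood cells, 27 of the 36 genes were higher, 17 at an unadjusted p under 0.05, beside 12.03% of all genes that were higher at that level. In the same fit 3 of the 36 were called by edgeR, which were *Npm1*, *Fbl* and *Nhp2*, while the number called among all genes went from 59 to 449.

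Some values carry a limit from the way reads were assigned. The library kit does not mark strand, and 14 of the 36 genes share exon bases with a gene of the other strand, *Nhp2*, *Pes1*, *Nop56*, *Polr1a*, *Wdr43*, *Gnl3* and *Bop1* among them, so their counts are uncertain. The counts of 7 genes, *Npm1*, *Ncl*, *Gnl3*, *Ddx21*, *Nolc1*, *Nip7* and *Noc2l*, were not whole numbers in any library, since reads that fit several places had been divided. Whole counts in every library were found for 8 genes, *Polr1a* and *Bop1* among them. Across the 36 genes the log2 fold change had a Spearman correlation of -0.23 with transcript length, -0.17 with GC content and 0.12 with mean CPM, given as descriptions over genes that share the same 8 libraries.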

How the data were processed

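RNA from CD11b+ cells of 4 control and 4 CSF1 OE mice was analysed, with 1 library per mouse and groups from the genotype code in each title. The authors mapped 2X125 reads with Bowtie 1.0.0 and estimated expression with RSEM 1.2.7, on build mm10 per the submitters' processing notes, and deposited expected counts per gene symbol without normalization. The annotation is not given in the sources used here. The deposited normalized table is a signal that the authors made by dividing each library by 1 size factor. The authors used EBSeq for their calls, which was not run here.

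Expected counts were rounded and tested with edgeR 4.0.16 in R 4.3.3 (TMM, filterByExpr, glmQLFit and glmQLFTest), with Benjamini-Hochberg adjustment over all 13407 genes tested and the study's fold thresholds of 0.7 and 1/0.7. No p was adjusted over a list. The common biological coefficient of variation was 0.228. In 28 pairs of libraries the chi-square per gene was at least 15.1, so none is a copy. Alternatives were DESeq2 1.42.0, upper-quartile and RLE factors, other filters on low counts (none, or at least 10 counts in every library), limma 3.58.1 on log2 of the normalized values plus 1, a term for animal numbers 1931 to 1936, a covariate for other cell types, removal of trends on length and GC content (GENCODE M21), each mouse left out and, chosen after seeing the data, a covariate for dividing cells. The methods were checked on simulated counts.

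The members and lists were chosen with earlier results of these data known. All 36 members are described. Values of every mouse are given for called members, for the 2 members of each role with the lowest p and for the largest rise and fall of each role, and of the other lists the largest rise and fall are named. Promoters came from RefSeq and positions from GENCODE M21 on GRCm38. Host transcripts of snoRNAs were not analysed here.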

Additional observations from a re-analysis of the deposited data

Results flagged for a closer look

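In 84 groups of 4 mice (each gene and each role sum in each genotype) the gap between the outermost mouse and the next was compared with the range of the group, and 5 exceeded the critical value of Dixon, where chance gives about 1 in 20. *Nop10* had 11.02 CPM in control mouse 1827 and 10.1 to 10.2 CPM in the other controls (ratio 0.940). *Polr1c* had 22.1 CPM in control mouse 1872 and 25.02 to 25.6 CPM in the others (ratio 0.846). In CSF1 OE mouse 1931 *Polr1c* was at 29.2 CPM, below 30.4 to 30.6 CPM in the other CSF1 OE mice (ratio 0.832), and *Nop16* was at 28.9 CPM, above 21.3 to 22.5 CPM (ratio 0.848). The summed CPM of the 4 RNA polymerase I genes was 248 in CSF1 OE mouse 1936 and 276 to 281 in the others (ratio 0.850).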

How the results depend on the processing

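edgeR called 59 genes, 88.1% of them higher in CSF1 OE. DESeq2 called 412 (61.9% higher), upper-quartile factors 19, limma 105, the term for animal numbers 1274 (23.8% higher), the covariate for other cell types 449 (50.8% higher), removal of length and GC trends 17 and the covariate for dividing cells 0. With a mouse left out the number ran from 3 (without control mouse 1872 or 1874) to 164 (without control mouse 1827). Of the 36 genes, where 1 was called with all mice, DESeq2 called 4 (*Npm1*, *Ddx21*, *Nhp2*, *Rrp12*), beside 412 of all 13407 genes tested. The term for animal numbers called 3 (*Npm1*, *Ddx21*, *Rrp12*), beside 1274 of 13407, so the share of the 36 was no higher than that of all genes. The covariate for other cell types called 3, beside 449 of 13407. Upper-quartile factors, removal of length and GC trends and the covariate for dividing cells called 0 of the 36. With a mouse left out the number called among the 36 ran from 0 to 3. It was 3 without control mouse 1827, beside 164 of 13548 genes tested. It was 1 (*Fbl*) without CSF1 OE mouse 2019, beside 72 of 13638, and 0 without any other mouse. In the fits with 0 called members, from 5 (covariate for dividing cells) to 19 had an unadjusted p under 0.05. In those fits 4.12% to 9.635% of all genes tested were higher at that level. Apart from the covariate for dividing cells, that number was 13 to 19 over all alternatives, none lower. Beside it, 7.25% to 13.57% of all genes tested were higher at that level. The median of the 36 genes was between 0.21 and 0.31 in every alternative run. Of the other assembly genes, the term for animal numbers called 2 (*Ptrf* lower, *Utp3* higher) and the covariate for other cell types 1 (*Taf1c*).

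The sign of some genes changed. With the term for animal numbers the log2 fold change was 0.027 for *Polr1b*, 0.032 for *Ubtf*, 0.099 for *Rrp1b* and 0.136 for *Noc2l*. With length and GC trends removed it was 0.029 for *Ubtf*, 0.036 for *Rrp1b*, 0.045 for *Noc2l* and -0.025 for *Nob1*. The covariate for other cell types gave -0.078 for *Heatr1*, -0.0037 for *Noc4l*, -0.064 for *Nob1* and -0.027 for *Nop2*, and that for dividing cells 0.059 for *Ubtf* and 0.058 for *Noc2l*. For *Noc2l* no filter gave 0.0014 and limma 0.00061. With each mouse left out *Polr1b* ran from -0.143 to 0.055, *Ubtf* from -0.037 to 0.034, *Wdr75* from -0.033 to 0.052, *Nob1* from -0.026 to 0.102, *Rrp1b* from -0.096 to 0.142 and *Noc2l* from -0.068 to 0.060. The cause of these changes was not tested. No paired analysis was made, since the labels name no pairs of mice.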
